A study of Mus musculus with 6 samples.

Results

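Chemokine ligands are small secreted proteins that draw leukocytes along a gradient by binding receptors coupled to G proteins. Activated T cells are known to secrete several of them, and the class of a ligand is read from the spacing of its first cysteines, which are adjacent in CC ligands, parted by 1 residue in CXC ligands and reduced to a single one in XCL1. The 7 ligand genes described here were Ccl1, Ccl3, Ccl4, Ccl5, Ccl9, Xcl1 and Cxcl10. These genes were chosen by name as chemokines of T cells, with earlier results of these data known. All 7 were found among the 29393 mouse genes of the deposited count table and passed the filter for testing. They were measured in cDNT, T cells lacking CD4 and CD8 that arise ex vivo from CD4+CD25- T cells of C57BL/6 mice. For this the cells were cultured together with mature dendritic cells in the presence of IL-2, and the converted ones were sorted. Adult mice are named in the labels, with spleen as the tissue. W/ IL-10 cDNT were given IL-10 at 50 ng/ml over 24 h and W/O IL-10 cDNT were not, with 3 libraries in each group. The methods of the study name anti-CD3/CD28 antibodies beside IL-10, whereas the labels do not mention them. No source used here says whether the libraries of a group came from separate mice, pools or cultures, so the p-values measure the spread between these libraries, which may be technical.

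The libraries held 21619420 to 23967088 counts on genes, and 3 counts, the floor used here, corresponded to 0.122 to 0.146 CPM (counts relative to the library size after TMM scaling, which evens out differences in depth and composition), which covers counting error only. Of the T cell markers Cd3e, Cd3d, Cd3g, Cd247, Cd2, Cd5, Lck and Thy1, all 8 were expressed, with a summed level of 2593 to 3029 CPM W/O IL-10 and 3440 to 3485 CPM W/ IL-10. Cd4 was near absent, at 0.350 to 1.55 CPM over all 6 libraries. Cd8a was not absent, at 95.7 to 119 CPM W/O IL-10 and 138 to 168 CPM W/ IL-10, so the mRNA did not match the CD8-negative label. Cd8b1, the other CD8 chain, rose from 32.5 to 44.5 CPM W/O IL-10 to 57.0 to 66.6 CPM W/ IL-10 (log2 fold change 0.67, adjusted p = 0.0306 by edgeR, described next). Markers of other cells were present too. The 5 B cell markers summed to 62.2 to 153 CPM W/O IL-10 and 59.3 to 105 CPM W/ IL-10, and the 8 macrophage and monocyte markers to 27.8 to 35.6 and 33.3 to 36.7 CPM. Of 11 dendritic cell markers 10 were in the table, summing to 283 to 358 and 229 to 307 CPM. Among them, Clec9a and Siglech were at 0 in 5 of 6 libraries each, whereas others were expressed. Over all 6 libraries Zbtb46 was at 4.66 to 6.98 CPM, Cst3 at 78.8 to 112, Cd74 at 60.5 to 160 and H2-Ab1 at 29.2 to 76.5 CPM. The 6 NK cell markers summed to 878 to 1053 CPM W/O IL-10 and 669 to 814 CPM W/ IL-10. The T cell sum was higher and the NK cell sum lower in all W/ IL-10 libraries. Within these lists single genes went both ways. Of the T cell markers 7 had a positive log2 fold change and Cd5 a negative one (-0.47, adjusted p = 0.0467 in edgeR). Of the NK cell markers Ncr1 fell (-1.15, adjusted p = 0.0460 in edgeR), and Klre1 was at 15.5 CPM on average W/O IL-10 against 20.7 CPM W/ IL-10. Most of the lower NK sum came from Eomes, which T cells also express, at 517 against 364 CPM. The part of such shifts in the ligand levels was not tested. In bulk RNA, fewer cells of a type and less RNA per cell cannot be told apart.

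With IL-10 the mRNA of Ccl3 and Ccl4 rose, by 2.43-fold and 2.53-fold, and no other of the 7 ligands passed the test with all 6 libraries and the settings used throughout. To be called, a gene had to change at least 1.5-fold with an adjusted p-value under 0.05 in the quasi-likelihood test of edgeR. The p-values were adjusted by Benjamini-Hochberg over 14916 genes, those that reached 10 counts in 3 or more libraries. By this rule 0.778% of all tested genes rose and 0.677% fell, beside 2 and 0 of the 7 ligands, and 1.45% changed in either direction. The adjusted p alone, at any fold change, was passed by 2.19% of all tested genes and by the same 2 ligands. An unadjusted p under 0.05 was reached by 14.7% of tested genes and by 4 ligands, which were Ccl3, Ccl4, Ccl5 and Xcl1. The median log2 fold change was 0.51 over the ligands and 0.0063 over all tested genes. Ccl5 and Xcl1 were higher W/ IL-10 on average without passing. Cxcl10 was lower on average without passing, and the 95% intervals of Cxcl10, Ccl9 and Ccl1 included 0. Groups that did not overlap were seen for 2 of the 7 ligands, Ccl3 and Ccl4, and for 22.6% of all tested genes. Since the ligands were chosen with earlier results of these data known, the values beside all tested genes are descriptions and no test of the set.

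**Figure D1:**
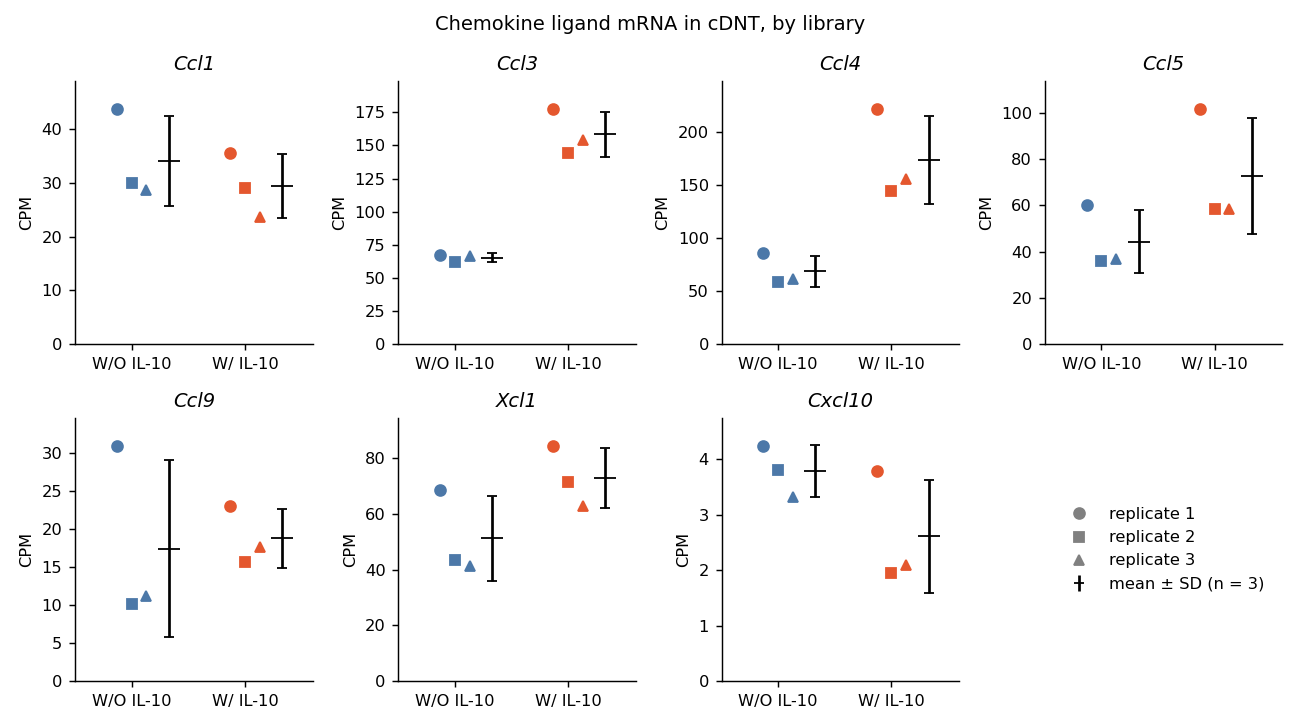
Level of each chemokine ligand (CPM, linear axes from 0) in the 3 W/O IL-10 libraries (blue) and the 3 W/ IL-10 libraries (red), with the mean and SD of each group in black. Ccl3 and Ccl4 are the panels whose groups do not overlap, and the replicate 1 libraries (circles) are the highest of their group in all 7 panels.

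The coding sequences show how the ligands are related. In each line below, 8 codons before and after the first cysteine codons that follow the leader are printed 5′ to 3′ from the GENCODE M21 transcript, with the cysteine codons of the class motif in capitals. They are shown because this spacing defines the CC, C and CXC classes.
Ccl3: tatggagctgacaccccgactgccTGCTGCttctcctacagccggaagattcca
Ccl4: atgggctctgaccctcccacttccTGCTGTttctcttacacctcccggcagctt
Ccl5: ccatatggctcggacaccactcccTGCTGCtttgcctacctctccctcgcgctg
Ccl1: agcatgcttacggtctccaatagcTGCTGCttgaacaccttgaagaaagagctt
Ccl9: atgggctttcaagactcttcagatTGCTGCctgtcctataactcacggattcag
Xcl1: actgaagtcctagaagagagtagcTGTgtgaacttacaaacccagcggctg
Cxcl10: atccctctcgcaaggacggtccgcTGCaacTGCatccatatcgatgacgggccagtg
Over their whole coding sequences, Ccl3 and Ccl4 shared 66.0% of aligned bases, the highest value of the 21 pairs of ligands. Ccl5 shared 59.6% with Ccl3 and 58.8% with Ccl4, and the remaining pairs shared 43.4% to 50.0%. None of the 50-base stretches of Ccl1, Ccl3, Ccl4, Ccl5, Xcl1 or Cxcl10 transcripts occurred in transcripts of another gene, and 1.97% of those of Ccl9 did.

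Ccl3 (ENSMUSG00000000982, chromosome 11 of GRCm38, 83647844 to 83649355, minus strand) encodes MIP-1α, a CC ligand that draws monocytes, T cells and NK cells. In order of replicate number, its level was 67.4, 61.6 and 66.8 CPM W/O IL-10, and 177, 144 and 154 CPM W/ IL-10. The lowest library with IL-10 stood far above the highest one without, and the W/O IL-10 libraries lay close together. The means were 65.3 ± 3.17 and 158 ± 17.1 CPM (SD, n = 3). This was a difference of 1.28 ± 0.092 on the log2 scale (SE, 95% interval 1.07 to 1.49, adjusted p = 0.000544 in edgeR). Without any 1 library it stayed between 1.19 and 1.34 and passed each time.

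Ccl4 (ENSMUSG00000018930, chromosome 11, 83662584 to 83664683, plus strand) encodes MIP-1β, a CC ligand that is often secreted together with MIP-1α. It was at 85.6, 58.6 and 61.9 CPM in the W/O IL-10 libraries and at 221, 144 and 156 CPM in the W/ IL-10 libraries, in the order of their replicate numbers. The groups did not overlap, and in both of them replicate 1 stood above the other two. The means were 68.7 ± 14.7 and 174 ± 41.7 CPM (SD, n = 3), which differed by 1.34 ± 0.19 on the log2 scale (SE, 95% interval 0.91 to 1.77, adjusted p = 0.0125 in edgeR). Without W/ IL-10 replicate 3 the log2 fold change was 1.41 and the adjusted p 0.0704, so the call was lost there, and with each of the other libraries left out it was kept. The folds of Ccl4 and Ccl3 were close, and their difference was not tested. The ratio of Ccl4 to Ccl3 counts was 1.27, 0.95 and 0.926 in the W/O IL-10 libraries and 1.25, 1.00 and 1.01 in the W/ IL-10 libraries, so that it differed more between replicate 1 and the others than between the groups.

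Ccl5 (ENSMUSG00000035042, chromosome 11, 83525778 to 83530518, minus strand) encodes RANTES, a CC ligand that effector and memory T cells hold ready. Its level was 59.9, 36.0 and 36.8 CPM W/O IL-10 and 101, 58.2 and 58.4 CPM W/ IL-10. The lower W/ IL-10 libraries were just under W/O IL-10 replicate 1, which made the groups overlap. The log2 fold change was 0.72 (SE 0.26, 95% interval 0.13 to 1.30), which did not pass after adjustment (adjusted p = 0.233 in edgeR). Without W/O IL-10 replicate 1 it was 0.98 and passed (adjusted p = 0.0163). It also passed under 3 of 9 other settings, which are named in the closing section.

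Xcl1 (ENSMUSG00000026573, chromosome 1, 164931644 to 164935527, minus strand) encodes lymphotactin, made by activated CD8+ T cells and NK cells, whose receptor XCR1 marks cross-presenting dendritic cells. It was at 68.7, 43.6 and 41.4 CPM W/O IL-10 and at 84.5, 71.6 and 62.9 CPM W/ IL-10. All W/ IL-10 libraries but replicate 3 were above the highest W/O IL-10 library. The log2 fold change was 0.51 (SE 0.19, 95% interval 0.08 to 0.94, adjusted p = 0.256 in edgeR), and without W/O IL-10 replicate 1 it was 0.77 and passed (adjusted p = 0.00263). Of its exon bases 18.7% lie under the opposite-strand gene Gm20743, and the strand setting of the counting is not given in the sources used here.

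Ccl9 (ENSMUSG00000019122, chromosome 11, 83572919 to 83578636, minus strand) encodes MIP-1γ, a CC ligand of CCR1 found in rodents and mostly known from myeloid cells. Its level was 30.9 CPM in W/O IL-10 replicate 1 against 10.2 and 11.1 CPM in replicates 2 and 3, and 23, 15.6 and 17.5 CPM in the W/ IL-10 libraries. One W/O IL-10 library was thus the highest of all 6 and the other two were the lowest. With all 6, it differed on the log2 scale by 0.10 (SE 0.39, 95% interval -0.77 to 0.98, adjusted p = 0.930 in edgeR). It was 0.80 without W/O IL-10 replicate 1 (adjusted p = 0.0171) and -0.18 without W/O IL-10 replicate 2, so the value turned with the library left out. Some genes of platelets and myeloid cells were also highest in W/O IL-10 replicate 1 and others were not. Pf4, the platelet chemokine CXCL4, was at 14.3 CPM there and at 0.394 to 2.53 CPM in the other 5 libraries. Lyz2, the lysozyme of macrophages, was at 3.59 CPM there and at 0.732 to 1.36 CPM elsewhere. In contrast, Itgam (CD11b) was at 1.02 CPM there and at 2.22 to 2.28 CPM W/ IL-10, and the sum of all 8 macrophage and monocyte markers, 35.6 CPM there, lay below that of W/ IL-10 replicate 3. The part of such cells in the level of Ccl9 was not tested.

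Ccl1 (ENSMUSG00000020702, chromosome 11, 82176657 to 82305690, minus strand) encodes TCA-3, a CC ligand of CCR8 made by activated T cells. Its values were 43.6, 29.9 and 28.6 CPM W/O IL-10 and 35.4, 29.0 and 23.7 CPM W/ IL-10, with groups that overlapped almost fully. The log2 fold change was -0.21 (SE 0.19, 95% interval -0.65 to 0.22, adjusted p = 0.650 in edgeR). The interval thus reached neither a fold change of 1.5 upwards nor the rise of Ccl3, and left room for a fall of up to 0.65 on the log2 scale. Without W/O IL-10 replicate 1 the log2 fold change was -0.0060.

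Cxcl10 (ENSMUSG00000034855, chromosome 5, 92346638 to 92348889, minus strand) encodes IP-10, the interferon-induced CXC ligand of CXCR3, and was the least abundant of the 7. It had 104, 92 and 77 counts in the W/O IL-10 libraries and 78, 44 and 48 counts in the W/ IL-10 libraries. These corresponded to 4.24, 3.80 and 3.31 CPM W/O IL-10 and to 3.79, 1.95 and 2.10 CPM W/ IL-10. W/ IL-10 replicate 1 lay within the W/O IL-10 range and the other two W/ IL-10 libraries below it. The log2 fold change was -0.54 (SE 0.28, 95% interval -1.18 to 0.10, adjusted p = 0.421 in edgeR), and -0.90 without W/ IL-10 replicate 1 (adjusted p = 0.186). Of its exon bases 5.91% lie under the opposite-strand gene Art3.

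**Figure D2:**
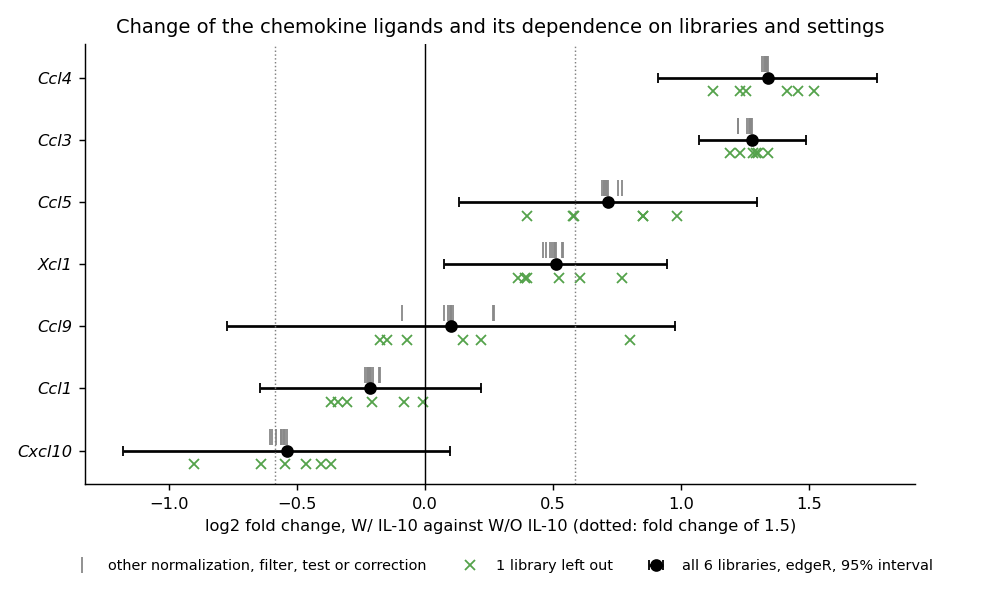
log2 fold change of each ligand (W/ IL-10 against W/O IL-10) from all 6 libraries with its 95% interval (black), with 1 library left out (green crosses) and under other settings (grey ticks); dotted lines mark a fold change of 1.5. The crosses of Ccl3 stay between 1.19 and 1.34, whereas those of Ccl9 run from -0.18 to 0.80.

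The ligands were also compared with each other as levels per length (CPM per kb of exon). W/O IL-10, Ccl4 (104 ± 22.3 CPM per kb), Xcl1 (98.0 ± 29.0) and Ccl3 (85.2 ± 4.13, SD, n = 3 each) were the highest, and these neighbours in the order differed by less than the SD of Xcl1. Ccl5 (46.1 ± 14.1), Ccl1 (14.4 ± 3.52), Ccl9 (5.71 ± 3.84) and Cxcl10 (1.68 ± 0.206 CPM per kb) followed, each below the one before by more than either SD. With IL-10, the order was Ccl4 (263 ± 63.1 CPM per kb), Ccl3 (207 ± 22.3), Xcl1 (140 ± 20.7) and Ccl5 (75.7 ± 25.9), and Ccl4 and Ccl3 differed by less than the SD of Ccl4, the other neighbours by more than either SD. Ccl1 (12.4 ± 2.47), Ccl9 (6.15 ± 1.26) and Cxcl10 (1.16 ± 0.452 CPM per kb) followed. The annotated exons of Ccl1 include a long transcript without a coding sequence, and the length used for Cxcl10 includes retained introns. Per kb of the coding transcript alone Ccl1 reached 57.2 ± 11.4 and Cxcl10 2.39 ± 0.931 CPM per kb W/ IL-10, and each group kept the order it had per kb of exon. The gaps were smaller on this scale. Ccl5 stood at 83.1 ± 25.5 CPM per kb W/O IL-10, within its own SD of Ccl3 and Ccl1 (66.3 ± 16.2), and at 137 ± 46.8 W/ IL-10, within its own SD of Xcl1. Together the ligands came to 355 ± 75.3 CPM per kb of exon (SD, n = 3) in the group W/O IL-10, against 705 ± 133 in the group W/ IL-10. Ccl3 and Ccl4 made up 49.3% to 57.3% of this sum in the W/O IL-10 libraries and 65.3% to 68.8% in the W/ IL-10 libraries, so the groups did not overlap. Per kb of the coding transcript the share was 38.8% to 46.2% W/O IL-10 and 56.7% to 60.6% W/ IL-10, again without overlap. Because Ccl3 and Ccl4 were the ligands called higher, these shares restate their rise and are not a separate result.

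**Figure D3:**
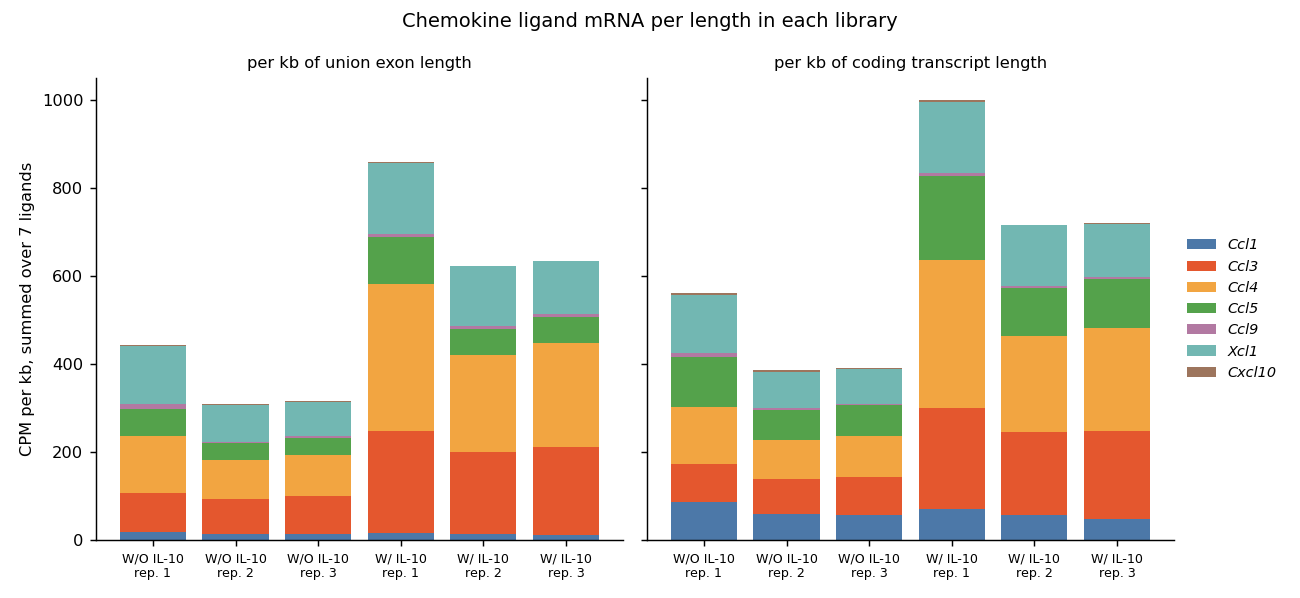
Summed level of the 7 ligands (CPM per kb) in each library, stacked by ligand, with the exon union of each gene (left) or its coding transcript (right) as the length. The 3 W/ IL-10 stacks are higher than the 3 W/O IL-10 stacks, and the segments of Ccl3 (red) and Ccl4 (orange) take 65.3% to 68.8% of each W/ IL-10 stack on the left.

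The genes of Ccl5, Ccl9, Ccl3 and Ccl4 lie within 139 kb of chromosome 11 together with Ccl6. The annotated Ccl1 gene, with all its transcripts, ends 1220 kb before Ccl5 on the same chromosome. Ccl3 and Ccl4 stand next to each other on opposite strands, with starts 13.2 kb apart. The table held 16 genes from 100 kb before Ccl5 to 100 kb after Ccl4, of which 9 were tested, and Ccl3 and Ccl4 were the 2 that were called. Ccl6, a CC ligand of myeloid cells whose gene lies between Ccl9 and Ccl3, was at 99.8, 35.2 and 17.4 CPM W/O IL-10 and at 35.2, 26.3 and 10.4 CPM W/ IL-10. It differed on the log2 scale by -1.09 ± 0.60 (SE, adjusted p = 0.449 in edgeR), and like Ccl9 it was highest in W/O IL-10 replicate 1. Of the genes at the edges of the cluster, Taf15, which encodes an RNA-binding protein, differed on the log2 scale by 0.59 (adjusted p = 0.198), and Heatr6 by -0.030 (adjusted p = 0.883 in edgeR). These neighbours were chosen by position after the values were seen.

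**Figure D4:**
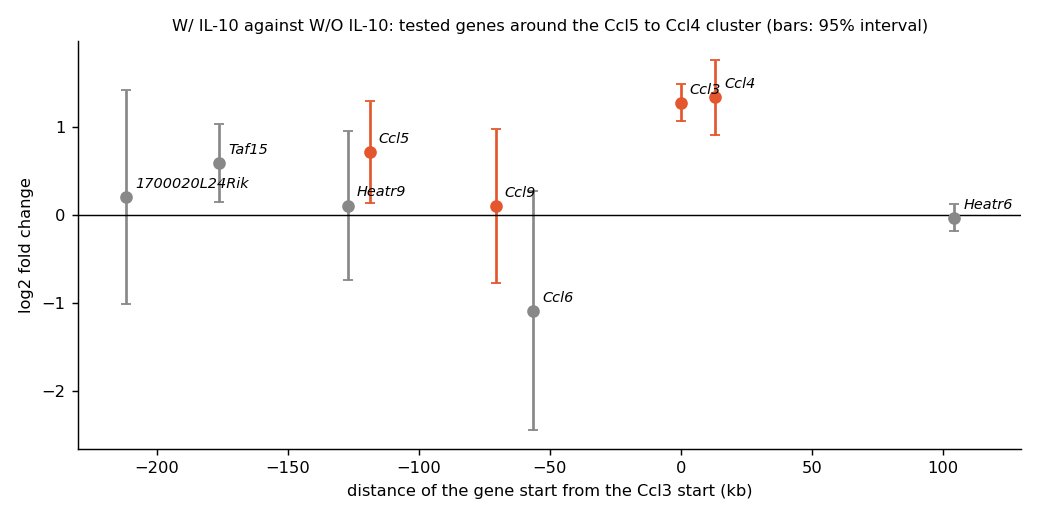
log2 fold change (W/ IL-10 against W/O IL-10, with 95% interval) of the 9 tested genes around the ligand cluster against the distance of their start from that of Ccl3 in kb; ligands of the set are red and other genes grey. Ccl3 and Ccl4 stand at 1.28 and 1.34 beside each other, and Ccl6 lies at -1.09 with an interval that includes 0.

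Promoter sequences from RefSeq (GRCm38.p6) were at hand for 5 of the 7 ligands, Ccl1, Ccl3, Ccl9, Xcl1 and Cxcl10. The 250 bases before the start of Ccl3, which rose, and of Cxcl10, which did not pass the test, are printed because both ligands are known to be inducible. Capitals mark matches, on either strand, to 4 sets of letters. These were TTCNNNGAA (STAT), GGG and CC parted by any 5 bases (κB), TGANTCA (AP-1), and GAAA repeated after any 2 bases (the interferon-stimulated response element).
Ccl3, chr11:83649379-83649628, minus strand: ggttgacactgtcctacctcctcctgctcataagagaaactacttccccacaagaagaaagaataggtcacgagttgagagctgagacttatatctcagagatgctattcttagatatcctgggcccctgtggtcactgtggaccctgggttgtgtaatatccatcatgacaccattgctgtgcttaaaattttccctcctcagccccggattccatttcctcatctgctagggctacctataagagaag
Cxcl10, chr5:92348890-92349139, minus strand: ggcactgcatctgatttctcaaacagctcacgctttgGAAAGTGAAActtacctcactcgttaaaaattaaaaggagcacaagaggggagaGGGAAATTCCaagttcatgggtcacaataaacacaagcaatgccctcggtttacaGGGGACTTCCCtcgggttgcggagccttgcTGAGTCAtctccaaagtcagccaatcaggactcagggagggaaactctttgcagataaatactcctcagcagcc
None of the 4 sets of letters was found in the windows of Ccl3 and Xcl1, which says only that these letters are not in these windows. Cxcl10 held the κB, AP-1 and interferon-stimulated letters, Ccl9 the κB and AP-1 letters, and Ccl1 the κB letters. Among 32851 promoter windows, 45.8% held the κB letters in the same 250 bases, 7.02% the STAT letters, 6.75% the AP-1 letters and 2.98% the interferon-stimulated letters. A match is a description of the sequence and not a site of binding.

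Within the groups, the ligands varied together from library to library. In both groups replicate 1 was the highest library for all 7 ligands, which was the case for 15.3% of all tested genes, and for 30.7% of the 1451 tested genes whose exons span at most 1000 bases. Ccl3, Ccl4, Ccl5 and Xcl1 belong to these short genes, and Ccl1, Ccl9 and Cxcl10 do not. The coding transcript of Ccl1 alone has 514 bases. Among tested genes with longer exons the share was 13.6%, and the part of length in this pattern was not tested. The deviations from the group means (log2 CPM, 6 libraries) correlated by 0.991 between Ccl4 and Ccl5, by 0.974 between Ccl1 and Xcl1 and by 0.858 between Ccl3 and Ccl4, and the lowest value of the 21 pairs was 0.490, between Ccl3 and Xcl1. These values are descriptions over 6 libraries, and the high replicate 1 libraries enter every pair. Over the 6 libraries, group difference included, the genes most like Ccl3 were Tnfsf10, the gene of TRAIL (Pearson r of 0.999), Serpinb9b (0.997) and Zswim6 (0.995). Those most like Ccl4 were Cd48 (0.997), Gm26792 (0.993) and Atp1b3 (0.989). For the other ligands r was 0.985 to 0.996. For Ccl5 they were AW112010, Gm37963 and Ccdc73, for Xcl1 Ifitm1, Prdx1 and Npdc1, for Ccl9 Gm13370, Slc25a33 and Ndufa11, for Ccl1 Qtrt1, Atxn10 and Tyrobp, and for Cxcl10 Cdk16, Cnot3 and Gm19590. Such values over 6 libraries do not single out these genes, since 122 of the 12974 genes compared exceeded 0.95 for Ccl3 alone.

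Of the other chemokine ligands none was called, by edgeR, DESeq2 or limma-voom. Of 31 listed, 25 were in the table and the other 6 were not analysed here. In every library 12 had fewer than 10 counts and were not measured, 4 reached 10 counts in too few libraries, and 9 were tested, of which 3 had an unadjusted p under 0.05. Of these 9, 8 had a negative log2 fold change, and the median was -1.09. Ccl22, the dendritic cell ligand of CCR4, was at 21, 9.50 and 5.90 CPM W/O IL-10 and at 3.79, 1.77 and 0.263 CPM W/ IL-10. The groups did not overlap (log2 fold change -2.67, SE 0.69, adjusted p = 0.102 in edgeR). Ccl22 is also one of the dendritic cell markers, and the part of such cells in its level was not tested. On the log2 scale Pf4 differed by -2.01 (adjusted p = 0.414), Ccl25, a ligand of CCR9, by 0.14 (adjusted p = 0.723), and Ccl27a, a ligand of CCR10, by -0.37 (adjusted p = 0.487 in edgeR). Cxcl9 and Cxcl11, which share the receptor CXCR3 with Cxcl10, had at most 9 and 1 counts per library and were not measured.

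Of the receptors listed for the ligands none was called by edgeR, DESeq2 or limma-voom. Cxcr3 (log2 fold change -0.043, adjusted p = 0.935), Ccr1 (-0.37, adjusted p = 0.388), Xcr1 (0.60, adjusted p = 0.184) and Ccr3 (0.032, adjusted p = 0.979 in edgeR) were among those of highest level. Xcr1 lay higher W/ IL-10 without overlap, as did 11.3% of all tested genes. Ccr8, the receptor of Ccl1, was picked after its values were seen and had at most 15 counts per library. It lay lower W/ IL-10 without overlap (-1.56, adjusted p = 0.284 in edgeR), as did 11.2% of all tested genes. Of 7 genes that bind chemokines or process them or their receptors none was called by these tools, and 2 had an unadjusted p under 0.05. Among them were Srgn, which encodes the granule proteoglycan serglycin (log2 fold change 0.22, adjusted p = 0.356), Dpp4, the peptidase that trims Ccl5 and Cxcl10 (0.17, adjusted p = 0.494), Cd44 (0.0090, adjusted p = 0.97), Tpst2 (0.27, adjusted p = 0.209) and Sdc4 (-0.60, adjusted p = 0.221 in edgeR).

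Of 16 genes known to govern the transcription or the decay of chemokine mRNA, none was called by edgeR or limma-voom and 1, Fos, by DESeq2. Fos had a log2 fold change of 0.88 and groups that did not overlap (adjusted p = 0.102 in edgeR, 0.0147 in DESeq2). In edgeR 5 of the 16 had an unadjusted p under 0.05, and the median log2 fold change was -0.00062. Without overlap 4 were higher and 3 lower W/ IL-10, beside 11.3% and 11.2% of all tested genes. The most abundant, Nfkb1, Zfp36l2, Nfatc1, Runx3 and Khsrp, had log2 fold changes between -0.13 and 0.0050, all with adjusted p-values of 0.490 or higher. Tbx21, which encodes T-bet and was picked after its values were seen, had a log2 fold change of 0.45 with an adjusted p of 0.0467 (edgeR), under the fold change of 1.5. Of 14 genes of the interferon-γ response only Ifng itself was called, by all 3 tools, and 6 had an unadjusted p under 0.05 in edgeR. It was at 10.6, 9.96 and 13.1 CPM W/O IL-10 and at 27.8, 23.9 and 25.4 CPM W/ IL-10 without overlap (log2 fold change 1.19, SE 0.13, adjusted p = 0.00383 in edgeR). On the log2 scale Igtp, an interferon-γ-induced GTPase, differed by -0.41 (adjusted p = 0.0430, under the fold change of 1.5), Tap1 by -0.15 (adjusted p = 0.427), Irf1 by -0.086 (adjusted p = 0.643), Psmb9 by -0.12 (adjusted p = 0.528) and Irgm1 by -0.26 (adjusted p = 0.143 in edgeR). Gbp2, Gbp3 and Gbp5, interferon-induced GTPases picked after their values were seen, lay higher W/ IL-10 without overlap. They differed by 0.26 (adjusted p = 0.0963), 0.31 (adjusted p = 0.133) and 0.48 (adjusted p = 0.101 in edgeR) on the log2 scale. Igtp, Tap1 and Irgm1 lay lower W/ IL-10 without overlap. Of the 14 genes 4 were higher and 3 lower without overlap, beside 11.3% and 11.2% of all tested genes. Ifng thus rose together with Ccl3 and Ccl4, and its known target Cxcl10 did not pass. Itgax (CD11c), listed as a dendritic cell marker and also carried by activated T cells, rose by a log2 fold change of 1.09 (adjusted p = 0.00383), and its part in the rise of Ccl3 and Ccl4 was not tested.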

How the data were processed

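RNA-seq of 6 cDNT libraries (3 W/O IL-10, 3 W/ IL-10) was used. The authors deposited 1 table of whole-number counts per Ensembl gene, without normalization, and all 6 value columns were used. The submitters' processing notes name HISAT2, HTSeq and GRCm38, while the methods of the study name TopHat, Cufflinks and UCSC annotation. Versions and the strand setting are not given in the sources used here. Groups came from the sample descriptions.

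TMM factors (0.953 to 1.03) and quasi-likelihood tests were computed from these counts in edgeR 4.0.16 under R 4.3.3. Tests covered 14916 genes that reached 10 counts in 3 or more libraries, with Benjamini-Hochberg adjustment over all of them and no block. Fold changes are unshrunk, their standard error is the log2 fold change divided by the square root of F, and 95% intervals use the t distribution. Alternatives used DESeq2 1.42.0, limma 3.58.1 and the settings given in the closing section. Symbols, lengths and coordinates are from GENCODE M21 (GRCm38), which held 29332 of the 29393 identifiers. The members and gene lists were chosen with earlier results of these data known. Named genes were the 7 ligands, the called genes and up to 5 of highest level per list, and the 3 genes most like each ligand. The result for 1 listed gene is not reported here. The edgeR step was tested on simulated counts. Figures were drawn with matplotlib 3.10.9 in Python 3.11.15.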

Additional observations from a re-analysis of the deposited data

How the results depend on the processing

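The rise of Ccl3 passed under all 9 other settings (log2 fold change 1.22 to 1.28) and with each of the 6 libraries left out (1.19 to 1.34). Ccl4 was not called when a fold change of 1.5 was the null hypothesis (log2 fold change 1.34, adjusted p = 0.171), where 1 ligand and 15 genes in all were called and 0 interferon-γ response genes, and ranged from 1.13 to 1.52 with 1 library left out. Ccl5 was called with the replicate number as a block (0.71, adjusted p = 0.0118 in edgeR) and with no filter on low counts (0.71, adjusted p = 2.43e-09 in edgeR). The correction for GC content and gene length together with the block called it too (0.75). Without the filter the adjusted p of Ccl3 in edgeR was 1.31e-33, against 0.000544 with it. Xcl1 passed the adjusted p in edgeR but not the fold change without the filter (0.50, adjusted p = 7.87e-05) and with the GC and length correction and the block (0.47, adjusted p = 0.0194). With that correction but no block Ccl9 stood at -0.089. With 1 library left out, log2 fold changes ran from 0.40 to 0.98 for Ccl5, from 0.36 to 0.77 for Xcl1, from -0.18 to 0.80 for Ccl9 (-0.18, -0.15 and -0.071 without W/O IL-10 replicate 2, W/O IL-10 replicate 3 or W/ IL-10 replicate 1), from -0.37 to -0.0060 for Ccl1 and from -0.90 to -0.37 for Cxcl10. Between 1 and 5 ligands were then called, and 35 to 254 genes in all. The 5 ligands called without W/O IL-10 replicate 1 were Ccl3, Ccl4, Ccl5, Ccl9 and Xcl1. The cause of these shifts was not tested.

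Of all tested genes, 217 were called, and 359 by DESeq2, 639 without a filter on low counts and 339 with the GC and length correction and the block. Without the filter 5 other chemokine ligands (Ccl6, Ccl22, Cxcl12, Ppbp and Pf4, all lower), 1 binding or processing gene (Sdc4), 1 regulator (Fos) and 2 interferon-γ response genes were called. Fos was also the 1 regulator called by DESeq2, with the block, and with the correction and the block. The block called 1 other chemokine ligand, Ccl22, and correction and block together 2, Ccl6 and Ccl22, with 1 binding or processing gene, Sdc4. Libraries of equal replicate number were not treated as pairs, since their deviations over all genes correlated by only 0.0524, -0.0573 and 0.114. As a hint of the opposite, 4 of the 6 libraries correlated best with their own number. With the block 196 genes were called.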
